A study of Homo sapiens with 17 samples.

Results

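Imprinted genes are transcribed mainly from the maternal or the paternal copy, under DNA methylation set in the germ line. A set of 10 such genes was followed after induction of active NOTCH3 in neuroblastoma cells: DLK1, MEG3, MEST, H19, IGF2, PEG3, PEG10, NDN, GRB10 and SNRPN. All 40 probe sets annotated to them, of 54675 on the array, were taken as members by annotation alone, while the 10 genes were listed with earlier results of these data known. Of the 40 members, 23 carry 1 gene symbol and 17 carry a listed gene beside other genes. Both H19 probe sets are annotated to H19 and MIR675, the microRNA gene within H19. The 3 IGF2 probe sets are annotated to IGF2 and INS-IGF2, a read-through with the insulin gene, and 11 of the 12 SNRPN probe sets name further genes of that locus. Readings of such probe sets cannot be split between the genes named, and they are given under all their symbols.

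The cells were IMR32, a human neuroblastoma line, with doxycycline-inducible NOTCH3IC, the intracellular domain that acts as the signalling form of the receptor. Cells grew in DMEM with 10% fetal calf serum, and doxycycline was in the medium of every culture after time 0. Clone c6 has 9 arrays, at times 0, 4, 8, 12, 24, 48, 72, 96 and 120, and clone c8 has 8 arrays, at times 0 to 96. Times carry no unit in the labels, and 1 array stands for each clone and time. Late stands here for times 48, 72 and 96, early for times 4, 8 and 12, and the start for time 0, each with 1 array per clone and time. No array comes from cells kept without doxycycline past time 0, so NOTCH3IC, doxycycline and time in culture cannot be told apart, and each clone is a single line.

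Many imprinted genes lie in pairs or clusters that share a control region. H19, a maternally expressed long non-coding RNA, and IGF2, a paternally expressed growth factor, share enhancers on chromosome 11, and a CTCF-bound control region decides which of them is used on each copy. DLK1, a paternally expressed transmembrane protein related to the Notch ligands, and MEG3, a maternally expressed long non-coding RNA, form a similar pair on chromosome 14. The arrays measure total RNA of a gene and do not tell the parental copies apart.

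The sequences below belong to H19, whose brighter probe set had the largest fitted log2(signal + 16) change among the members in late against start (IGF2/INS-IGF2 led in late against early), and to HES1, a well-known direct Notch target set beside it. The mature arms of miR-675, processed from the H19 transcript, are printed from RefSeq (GRCh38.p14) with the seed, bases 2 to 8, in capitals. The arrays read the H19 transcript and not these mature forms.
hsa-miR-675-3p: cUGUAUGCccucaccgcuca
hsa-miR-675-5p: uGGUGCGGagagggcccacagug
The seeds of both arms differ. The promoter windows of H19 (chr11:2001217-2001516, minus strand) and HES1 (chr3:194135898-194136197, plus strand) run from 250 bases before to 50 bases after the RefSeq gene start. Capitals mark the motif GTGGGAA, the core recognised by RBPJ, the DNA-binding partner of the Notch intracellular domain, on either strand.
H19: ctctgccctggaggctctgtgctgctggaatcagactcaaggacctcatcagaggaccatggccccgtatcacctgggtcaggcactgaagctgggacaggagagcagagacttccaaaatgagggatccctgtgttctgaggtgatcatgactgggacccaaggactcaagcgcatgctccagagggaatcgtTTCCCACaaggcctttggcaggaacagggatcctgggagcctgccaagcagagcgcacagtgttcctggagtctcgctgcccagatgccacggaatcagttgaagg
HES1: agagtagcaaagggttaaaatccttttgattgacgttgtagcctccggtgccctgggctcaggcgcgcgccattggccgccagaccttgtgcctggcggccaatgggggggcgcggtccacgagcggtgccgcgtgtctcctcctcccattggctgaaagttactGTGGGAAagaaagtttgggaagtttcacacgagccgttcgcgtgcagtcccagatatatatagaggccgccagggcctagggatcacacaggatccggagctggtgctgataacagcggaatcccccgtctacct
The H19 window holds 1 match, on the opposite strand (TTCCCAC), which starts 56 bases before the gene start, and the HES1 window holds 1 match 85 bases before it. The motif occurs in 2194 of 35116 promoter windows of 300 bases (6.248%). Of the 10 genes, 6 matched a promoter window by symbol (H19, MEG3, MEST, NDN, SNRPN and GRB10), and 1 of their 19 windows held the motif. DLK1, IGF2, PEG3 and PEG10 have no window in the table used. A match describes the sequence and is not evidence of binding.

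Values below are array signals on a linear scale, with a 2% trimmed mean of 100.01 on every array as deposited, and array medians from 14.6 to 19.3. Probe sets were tested where their mean log2(signal + 16) reached 4.68, the 40th percentile of all, which kept 32805 probe sets and 22 of the 40 members, from 9 of the 10 genes. The tested members are 1 probe set of DLK1, 2 of MEG3, 1 of MEST, 2 of H19/MIR675, 1 of IGF2/INS-IGF2, 3 of PEG3, 2 of PEG10, 4 of GRB10 and 6 of the SNRPN locus. The single NDN probe set was among the 18 members below that mean. NOTCH3 averaged 428 in clone c6 and 778 in clone c8 over the late times, against 94.6 and 218 at time 0, a log2 change of 1.88 ± 0.18 (SE, limma adjusted p = 7.13e-06). Its early change of 0.74 ± 0.18 did not pass the threshold (limma adjusted p = 0.0646), and time 4 of clone c6, at 75.2, lay below time 0. Whether this probe set reads the introduced NOTCH3IC, the cells' own NOTCH3 or both is not given in the sources used. Its signal is therefore not a measure of the induction. The other NOTCH3 probe set was below the mean needed for testing. Log2 changes are on the log2(signal + 16) scale, which understates the change of dim genes, and ± gives their SE from limma.

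After induction, H19/MIR675 and IGF2/INS-IGF2 rose and DLK1 fell in both clones. In late against start, 3 of the 22 tested members rose and 1 fell, where 3.64% of all tested probe sets rose and 1.1% fell. The median log2 change over the 22 members was -0.01, beside -0.00 over all tested probe sets. The other 18 tested members did not pass the threshold, and all of them had a fitted change between -0.45 and 0.41. 

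The brighter H19/MIR675 probe set had signals of 47.9, 69.5, 147, 171, 930, 2140.4, 1586.5, 1041 and 1016 in clone c6 from time 0 to time 120. Clone c8 had signals of 135, 152, 304, 918.5, 1829.8, 1659.6, 1201 and 990.5 from time 0 to time 96. Every late array lay above every early array and above time 0 in its own clone, and the highest signal came at time 48 in clone c6 and at time 24 in clone c8. Late means were 1589 ± 549.6 in clone c6 and 1284 ± 342 in clone c8 (SD over 3 times), against 47.9 and 135 at time 0. The log2 change was 3.83 ± 0.37, a fold of 14.3 (95% interval of the log2 change 3.05 to 4.61, limma adjusted p = 5.86e-06).

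The dimmer H19/MIR675 probe set gave 47.2, 51.4, 102, 109.9, 350.3, 758, 575, 479 and 541 in clone c6 over the same times. In clone c8 it gave 79.6, 168, 184, 426, 667, 551, 543 and 506. Each clone peaked at the same time as on the brighter probe set. It rose by 2.90 ± 0.31 on the log2 scale in late against start, a fold of 7.44 (limma adjusted p = 1.73e-05). Both probe sets carry the suffix that the maker gives to probes which may also match other transcripts.

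IGF2/INS-IGF2, read by 1 tested probe set, was dim at time 0, below the array medians. Its signals were 7, 10.2, 20.7, 19.7, 80.6, 399, 278, 220.2 and 272 in clone c6 from time 0 to time 120. Clone c8 gave 13.7, 15.8, 9.8, 62.3, 224, 324, 211 and 226. Each late array exceeded each early array of its clone, and the peak fell at time 48 in both. The late means were 299 ± 91.5 in clone c6 and 254 ± 61.1 in clone c8 (SD over 3 times), against 7 and 13.7 at time 0, and the log2 change was 3.45 ± 0.29 (fold 10.9, 95% interval of the log2 change 2.84 to 4.05, limma adjusted p = 1.46e-06). The size depends on the 16 added before the log, with log2 4.64 when 1 was added and 2.17 when 64 was added, both past the threshold. The other 2 IGF2/INS-IGF2 probe sets were below the mean needed for testing, with signals of 0.7 to 29.7.

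**Figure D1:**
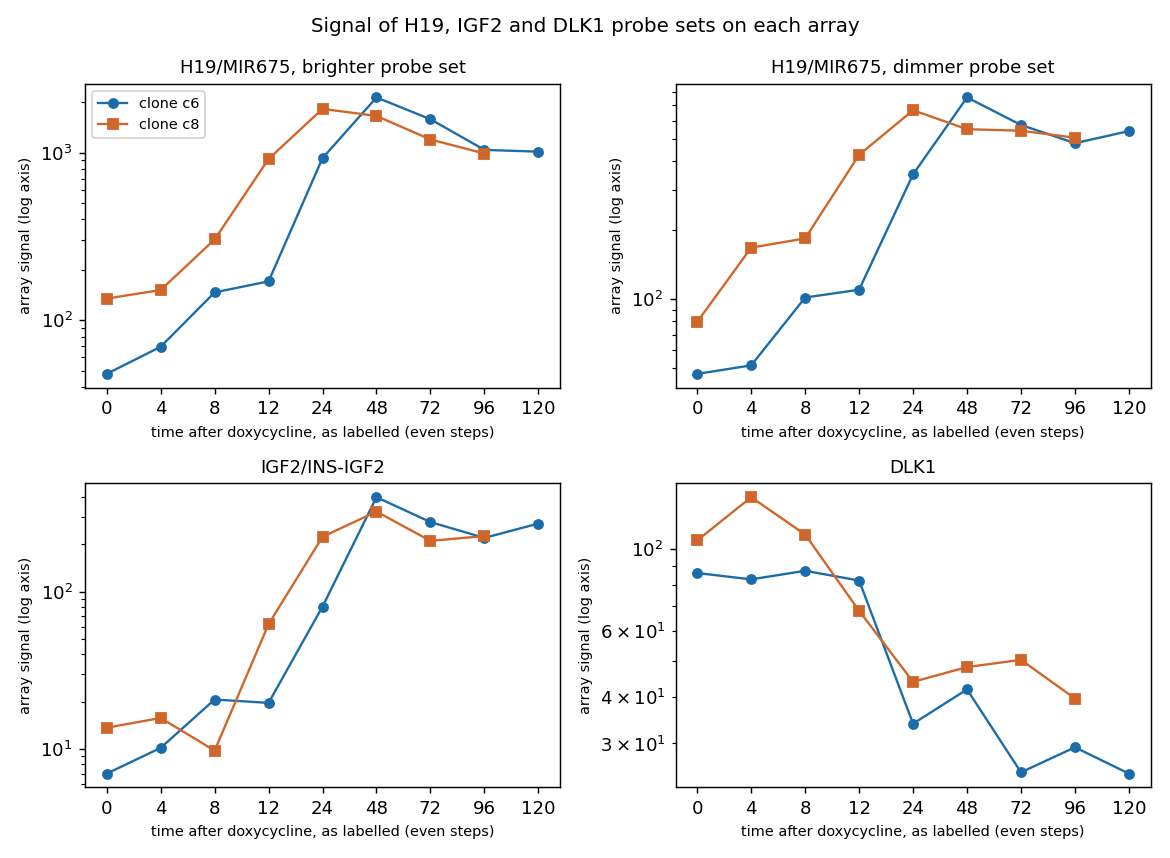
Signal on each array (log axis) against labelled time in even steps, for both H19/MIR675 probe sets, IGF2/INS-IGF2 and DLK1; blue circles are clone c6 and orange squares clone c8, 1 array per point. H19/MIR675 and IGF2/INS-IGF2 are higher on every late array than at time 0, and DLK1 is lower, with DLK1 at 24.9 to 50.3 from time 24 on.

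Over the 17 arrays, the clone-centred log2 signals of both H19/MIR675 probe sets had a Pearson correlation of 0.99, and each correlated with IGF2/INS-IGF2 at 0.95. These points share arrays and a time course, so the coefficients are a description. Among 13675 genes, the pattern of H19/MIR675 was most like that of C1orf54 (0.98) and COL18A1 (0.98), a collagen of basement membranes. That of IGF2/INS-IGF2 was most like SUSD4 (0.98) and MRTFB (0.98), a coactivator of serum response factor.

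DLK1 fell over the same interval. Its tested probe set gave 86, 82.7, 87.2, 82.1, 33.9, 41.9, 25.1, 29.3 and 24.9 in clone c6 from time 0 to time 120. Clone c8 gave 105, 137, 109, 68.1, 43.9, 48.1, 50.3 and 39.6. All late arrays were below all early arrays and below time 0 within their clone. The late means of 32.1 ± 8.74 in clone c6 and 46.0 ± 5.65 in clone c8 (SD over 3 times) stood against 86 and 105 at time 0. The log2 change was -1.04 ± 0.17, a fold of 0.488 (95% interval of the log2 change -1.39 to -0.68, limma adjusted p = 0.000941). The second DLK1 probe set was dim on every array, at 1.3 to 15.7. Nearest to DLK1 in pattern were FBXO28, part of a ubiquitin ligase, at 0.95, and FGFR2, a fibroblast growth factor receptor, at 0.94.

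MEG3, the partner of DLK1 on chromosome 14, was dim throughout. Its 2 tested probe sets had signals of 4.6 to 40.6 and 2.5 to 26.7 over the 17 arrays. Their log2 changes in late against start were 0.18 ± 0.29 (limma adjusted p = 0.839) and 0.41 ± 0.21 (limma adjusted p = 0.378), so neither passed the threshold. The remaining 8 MEG3 probe sets were below the mean needed for testing.

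In the early phase no member passed the threshold against time 0 (0 of 22, beside 1.33% of all tested probe sets), while 4 members and 4009 of all tested probe sets had an unadjusted limma p under 0.05. H19/MIR675 had early log2 changes of 1.20 ± 0.37 (limma adjusted p = 0.153) and 1.03 ± 0.31 (limma adjusted p = 0.142) on its brighter and dimmer probe sets. All 6 early arrays lay above their own time 0 on both probe sets, set against a single time 0 array per clone. The share of all tested probe sets that did so is not given here. With time 12 of clone c6 left out, the early log2 changes of H19/MIR675 became 1.51 and 1.26, and time 12 then rested on clone c8 alone. Of 29 and 28 alternative settings for the brighter and dimmer probe set, only this 1 moved them past the threshold. Early changes of PEG3 (-0.47 ± 0.13, limma adjusted p = 0.104) and PEG10 (-0.50 ± 0.15, limma adjusted p = 0.130) did not pass it either.

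Late against early does not use the time 0 arrays. Here 3 members rose and 2 fell, beside 2.53% and 0.82% of all tested probe sets. IGF2/INS-IGF2 rose by 2.98 ± 0.23 (limma adjusted p = 5.05e-07). H19/MIR675 rose by 2.64 ± 0.37 (limma adjusted p = 0.000351) and 1.86 ± 0.27 (limma adjusted p = 0.000388) on its brighter and dimmer probe sets. DLK1 fell by 1.0 on the log2 scale (SE 0.14, limma adjusted p = 0.000256). The second fall was that of MEST, a paternally expressed gene of the alpha/beta hydrolase fold family, at -0.29 ± 0.08 (limma adjusted p = 0.0444), which stayed past the threshold in 6 of 24 alternative settings. MEST averaged 1130 ± 101 late and 1370 ± 115 early in clone c6 (SD over 3 times), against 1052 at time 0. In clone c8 the means were 363 ± 25.9 late and 450 ± 14.5 early (SD over 3 times), against 417 at time 0. Against time 0 MEST changed by 0.24 ± 0.12 early (limma adjusted p = 0.449) and -0.05 ± 0.12 late (limma adjusted p = 0.909). Neither passed the threshold.

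The clones differed in how far the change had gone at time 12. As a share of each clone's own late change on the log2 scale, the brighter H19/MIR675 probe set had reached 33.7% in clone c6 and 85.6% in clone c8. IGF2/INS-IGF2 had reached 17% in clone c6 and 44.3% in clone c8. DLK1 had completed 5.11% of its fall in clone c6 and 54.3% of it in clone c8. By time 24 the shares of H19/MIR675 were 84.7% in clone c6 and 118% in clone c8. IGF2/INS-IGF2 stood at 55.4% in clone c6 and 95.4% in clone c8 by then, and DLK1 at 93.8% of its fall in clone c6 and 105% of it in clone c8. These are single arrays. The difference in these shares was not tested. The interaction of clone and phase asks another question, whether the late minus early log2 change differs between the clones, and leaves out time 24. This interaction called 0 of 22 members and 0% of all tested probe sets with limma, while 2 members and 2568 of all had an unadjusted p under 0.05. Its largest member values were a late minus early change higher in clone c6 by 1.70 ± 0.64 (limma adjusted p = 0.600) and 1.49 ± 0.40 (limma adjusted p = 0.547) for the brighter and dimmer H19/MIR675 probe sets. With single arrays left out, the brighter one ranged from 1.03 without time 12 of clone c8 to 2.27 without time 4 of clone c8, and neither value passed the threshold.

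Some cell type markers also changed in late against start, where 3.64% of all tested probe sets rose and 1.1% fell. Of 7 tested smooth muscle and pericyte markers 6 rose in late against start, and their summed signal was 4062.5 to 14296.5 on the late arrays, against 163 and 248 at time 0 of clones c6 and c8. ACTA2, smooth muscle actin, rose by 5.88 ± 0.46 (limma adjusted p = 9.26e-07), and CSPG4 of that list was below the mean needed for testing. TAGLN and MYH11 were dim at time 0, at 5.2 and 3.6 in clone c6 and at 10.6 and 6 in clone c8. The mean needed for testing covers all arrays, so markers dim at time 0 can enter by their late signals. The count of rises may be raised by that. In clone c6 ACTA2 was at 96.2 at time 24, against 45.9 at time 0 and 2094 at time 48. In clone c8 it was at 1393 at time 24, against 92.6 at time 0. Of 7 fibroblast markers 4 rose, with sums of 4820 to 8644 late, against 1346 and 990 at time 0. COL3A1, a fibrillar collagen, rose by 7.56 ± 0.43 (limma adjusted p = 4.02e-08). Most of the late sum came from COL3A1, at 3306 to 6491 on the late arrays. PDGFRA of that list went the other way, below time 0 on every late array. Its change of -0.51 ± 0.14 did not pass the threshold (limma adjusted p = 0.0518). Of 9 tested sympathetic neuroblast markers 1 rose and 2 fell, and their sum was 9554 to 11290.3 late, against 12905 and 13002 at time 0. Most of that sum came from MYCN and GATA3, at 5493 and 4151 at time 0 of clone c6, and neither passed the threshold. STMN2 rose by 1.23 ± 0.20 (limma adjusted p = 0.00107) from a dim start of 3.7 and 5.3. PHOX2A fell by 0.77 on the log2 scale (SE 0.13, limma adjusted p = 0.00141). DBH, which makes noradrenaline, fell by 2.19 on the log2 scale (SE 0.33, limma adjusted p = 0.000463), and TH, which catalyses the first step of the same pathway, was below the mean needed for testing. Schwann cell and glial markers summed to 13.7 to 51 late, against 9.4 and 37.2 at time 0, with SOX10, S100B and GFAP below that mean. None of 7 cell division genes passed the threshold (sums of 9261 to 11316.5 late and 7232 to 12998 early, against 12301 and 11528 at time 0). All 7 lay below time 0 at time 24 of clone c6 and at time 12 of clone c8. MKI67 was at 199.6 and 286.5 on these arrays, against 653 and 573 at time 0. The part of these shifts in the H19, IGF2 and DLK1 changes was not tested. In bulk RNA a change in the share of cells of a type and a change in RNA per cell cannot be told apart.

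No probe set of PEG3, PEG10, GRB10 or SNRPN passed the threshold in late against start. PEG3, a paternally expressed zinc finger protein, had signals of 224 to 425 on its brighter probe set. It averaged 385 ± 21.1 in clone c6 and 302 ± 38.2 in clone c8 over the late times (SD over 3 times), against 425 and 347 at time 0. The log2 change was -0.17 ± 0.13 (limma adjusted p = 0.608). The lowest signal of that probe set came at time 12 in both clones, at 247 in clone c6 and 224 in clone c8. The dimmer PEG3 probe set was lowest elsewhere, at time 24 in clone c6 (68.2) and time 72 in clone c8 (46.4), with a late change of -0.21 ± 0.19. The probe set shared by PEG3 and ZIM2, its neighbour, was dim (3.4 to 33.6) and had a change of -0.45 ± 0.21 (limma adjusted p = 0.305).

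PEG10, a paternally expressed gene derived from a retrotransposon, was also lowest at time 12 on its brighter probe set. That probe set gave 508, 365.5, 363.5, 271, 349, 367, 339, 321 and 421 in clone c6 from time 0 to time 120. Clone c8 gave 249.9, 201.5, 191, 165, 278, 214, 231 and 274. Its late against start change was -0.31 ± 0.15 (limma adjusted p = 0.330). The other PEG10 probe set was lowest at time 8 in clone c6 (43.1) and at time 12 in clone c8 (49.1), with a late change of -0.19 ± 0.21. GRB10, an adaptor that dampens signalling from the insulin and IGF1 receptors, had signals of 429.9 to 580 on its brightest probe set. Its log2 change was -0.20 ± 0.11 (limma adjusted p = 0.405), and its other 3 probe sets lay between -0.23 and 0.03.

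SNRPN encodes a core protein of the spliceosome and shares its transcript with SNURF, and the locus also carries small nucleolar RNAs. The brightest SNRPN/SNURF probe set had signals of 1244 to 1465 in clone c6 and 1422 to 1820.5 in clone c8. Its log2 change in late against start was 0.08 ± 0.11 (limma adjusted p = 0.819). This probe set and the second brightest carry the suffix described for H19/MIR675, given to probes which may also match other transcripts. The other 5 tested probe sets of the locus changed by -0.14 to 0.27, and none passed the threshold. NDN, a paternally expressed neuronal growth suppressor of the same chromosome 15 region, had signals of 2.6 to 16.4.

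By the same clone-centred correlation over 17 arrays and 13675 genes, given without a test, the nearest patterns to the other members were as follows. PEG3 was nearest to ZNF804A and CCNE2, a cyclin of entry into DNA synthesis (both 0.95). MEST was nearest to SPRR3 (0.91) and CRACD (0.88), and MEG3 to NUP210P1 (0.90) and APOBEC4 (0.83). PEG10 was nearest to IFRD1 (0.85) and RAP1B (0.84), GRB10 to TIMP2 and ALG14 (both 0.90) and SNRPN/SNURF to HERPUD1 (0.89) and DDX49 (0.85).

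**Figure D2:**
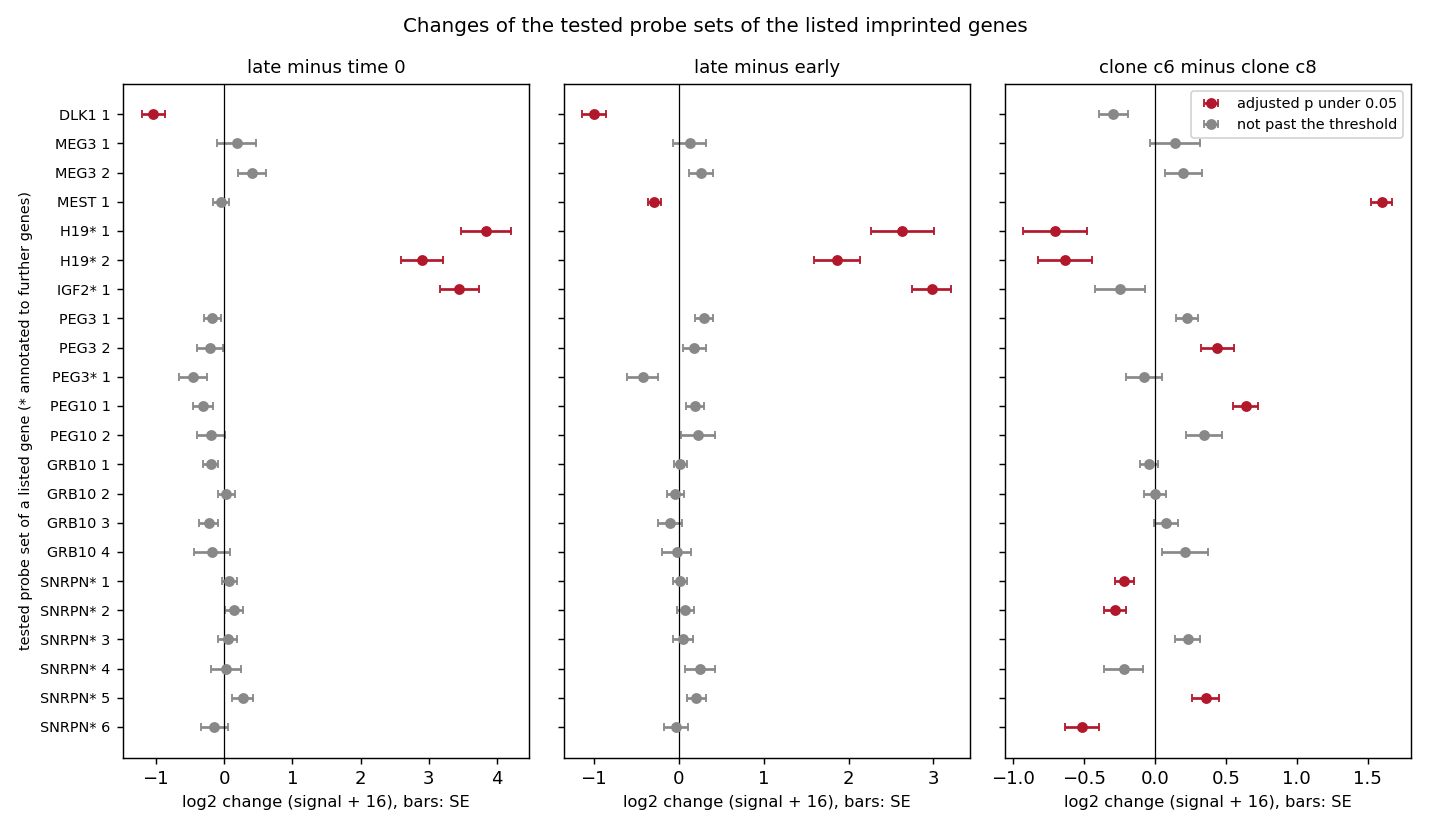
Fitted log2 change (points) with its SE (bars) for the 22 tested members in late minus time 0, late minus early and clone c6 minus clone c8; red marks a limma adjusted p under 0.05, and a star marks probe sets annotated to further genes. In the first panel H19* lies at 3.83 and 2.90, IGF2* at 3.45 and DLK1 at -1.04, and the other members lie between -0.45 and 0.41.

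The clones also differed in level apart from time. Over the 8 shared times, 9 of the 22 members differed, 4 higher and 5 lower in clone c6, beside 19.1% of all tested probe sets in either direction. MEST gave the largest difference among the members, with 1052, 1259, 1488, 1361.5, 1467, 1209, 1016, 1165 and 1089.5 in clone c6 from time 0 to time 120. Clone c8 gave 417, 459, 433, 458, 357, 383, 333.5 and 372. No signal of clone c8 reached the lowest of clone c6, and time 0 showed the difference already. The log2 difference of clone c6 minus clone c8 was 1.60 ± 0.07, a fold of 3.03 (limma adjusted p = 4.13e-09).

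PEG10 was higher in clone c6 at 8 of 8 shared times on its brighter probe set, by 0.64 ± 0.09 (limma adjusted p = 0.000155), and its other probe set had 0.35 ± 0.13 (limma adjusted p = 0.0669). The dimmer PEG3 probe set was higher in clone c6 by 0.44 ± 0.11 (limma adjusted p = 0.0131), beside 0.23 ± 0.08 on the brighter one (limma adjusted p = 0.0550). Both H19/MIR675 probe sets were lower in clone c6, at -0.70 ± 0.23 (limma adjusted p = 0.0382) and -0.63 ± 0.19 (limma adjusted p = 0.0287). The call was lost in 15 of 25 and 13 of 24 alternative settings. The brighter one was higher in clone c6 at 3 of 8 shared times, 48, 72 and 96. The SNRPN locus gave 4 calls that disagreed in sign: the 2 brightest SNRPN/SNURF probe sets were lower in clone c6 by -0.22 ± 0.07 and -0.28 ± 0.08, another one was higher by 0.36 ± 0.09, and a probe set of the small nucleolar RNAs and IPW was lower by -0.52 ± 0.12 (limma adjusted p = 0.0308, 0.0208, 0.0145 and 0.00624).

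**Figure D3:**
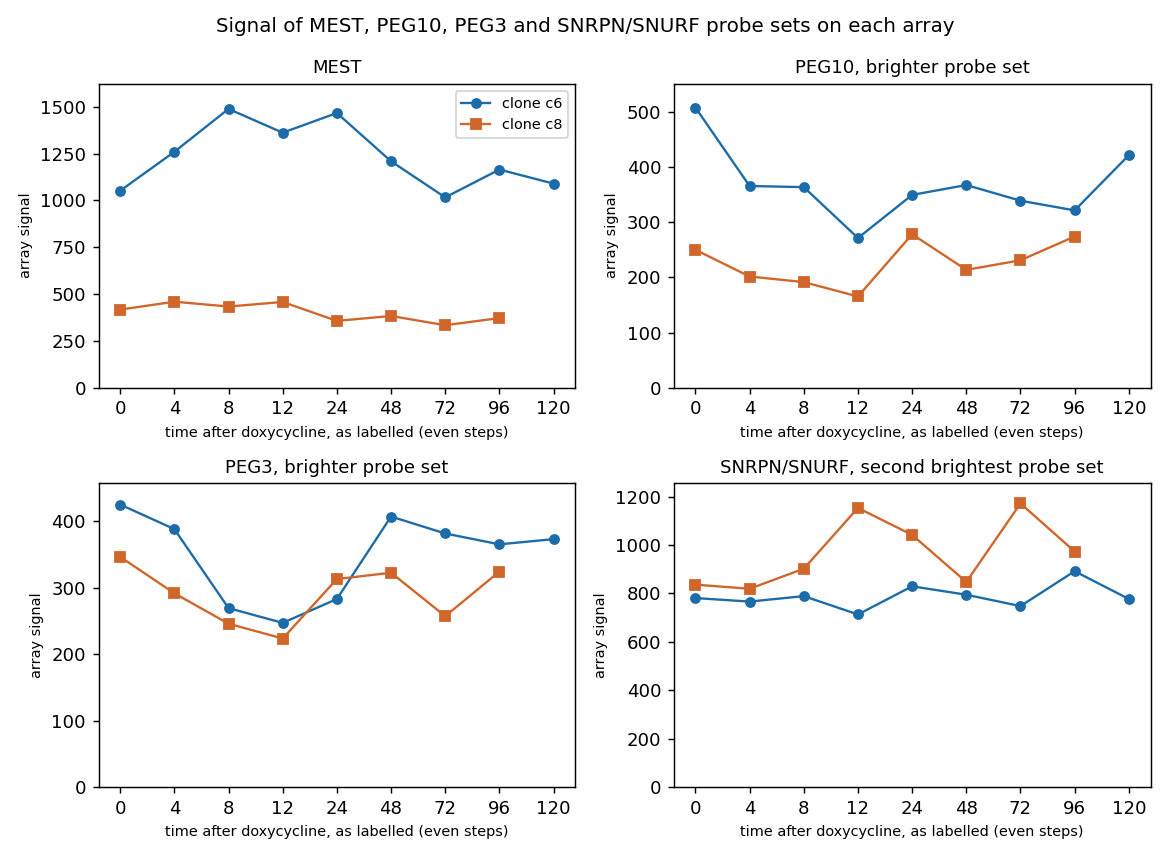
Signal on each array against labelled time in even steps, for MEST, the brighter PEG10 and PEG3 probe sets and the second brightest SNRPN/SNURF probe set; blue circles are clone c6 and orange squares clone c8, 1 array per point. MEST runs at 1016 to 1488 in clone c6 and at 333.5 to 459 in clone c8, and the plotted PEG3 and PEG10 probe sets are lowest at time 12 in both clones.

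Other imprinted genes were read from a list of 63, of which 50 had a probe set with 1 symbol and 35 were tested. In late against start 1 of the 35 rose and 0 fell, beside 3.64% and 1.1% of all tested probe sets. The median log2 change was 0.00, beside -0.00 over all tested probe sets. The rise was that of CDKN1C, a maternally expressed inhibitor of cyclin-dependent kinases. Its signals were 176, 636.5, 1535, 1967, 1682.5, 628, 553, 695 and 679 in clone c6 from time 0 to time 120. Clone c8 gave 197, 1155, 1809.6, 2239.8, 1106, 589, 854 and 756. Both clones peaked at time 12, before the peak of H19/MIR675, and every later array stayed above time 0. The log2 change was 1.77 ± 0.19 in late against start (limma adjusted p = 1.53e-05), 2.85 ± 0.19 in early against start (limma adjusted p = 3.50e-07) and -1.09 ± 0.21 in late against early (limma adjusted p = 0.00586). All 4 tested CDKN1C probe sets rose late against start, by 1.41 to 1.77.

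In late against early 2 of the 35 rose and 2 fell, beside 2.53% and 0.82% of all tested probe sets. The genes other than CDKN1C were named after their values were seen. PLAGL1, a paternally expressed zinc finger transcription factor, rose by 0.50 ± 0.11 (limma adjusted p = 0.0147), and all 3 of its probe sets passed the threshold. PHLDA2, a maternally expressed growth regulator of placenta, rose by 0.63 ± 0.15 on its brighter probe set (limma adjusted p = 0.0299), while the other one had -0.04 ± 0.16. Against time 0 neither gene passed the threshold. PLAGL1 changed by -0.33 ± 0.14 early and 0.17 ± 0.14 late (limma adjusted p = 0.360 and 0.662). The brighter PHLDA2 probe set changed by -0.39 ± 0.21 early and 0.24 ± 0.21 late (limma adjusted p = 0.490 and 0.670). NNAT, paternally expressed neuronatin, fell by 0.53 on the log2 scale (SE 0.10, limma adjusted p = 0.00637). In late against start NNAT had -0.41 ± 0.14 (limma adjusted p = 0.137). Its late arrays had 2575.8 to 2826 in clone c6 and 2167 to 3171 in clone c8, against 4539.6 to 4881 early in clone c6 and 2749 to 3296 in clone c8, so the phases overlapped in clone c8.

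**Figure D4:**
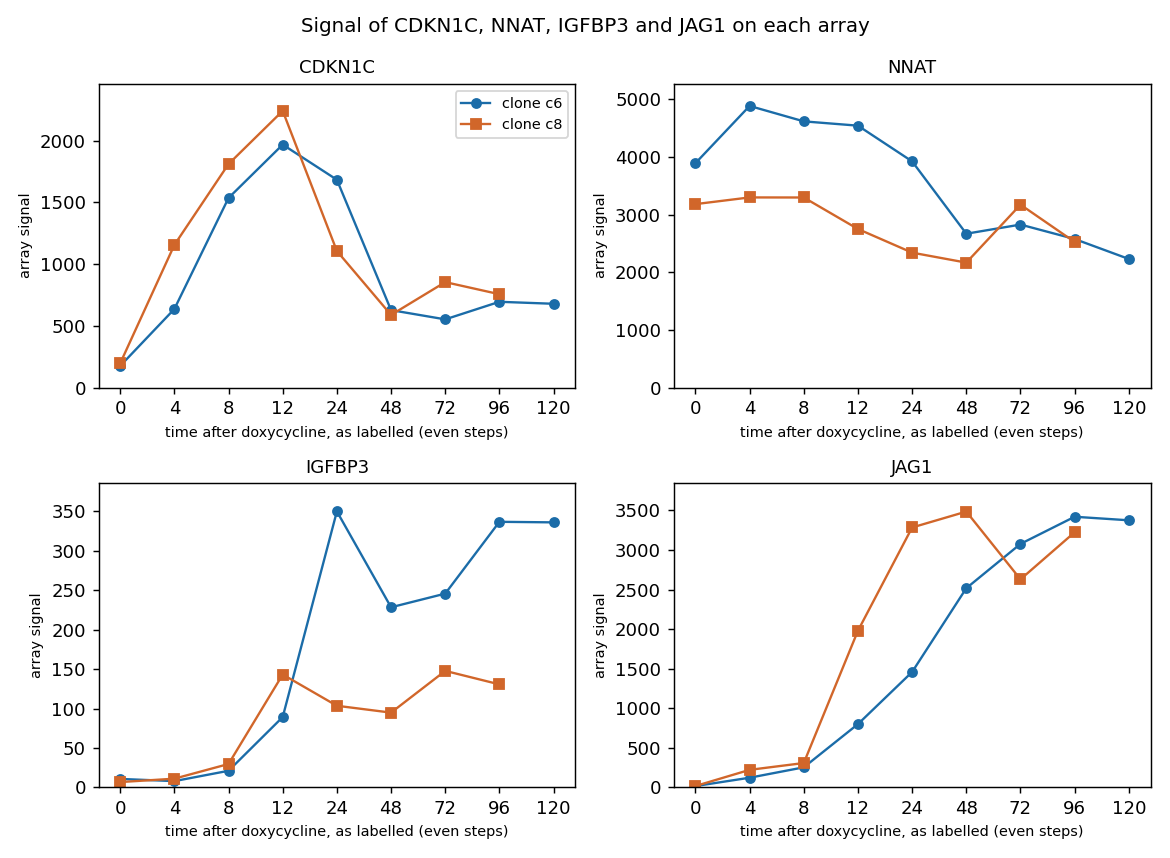
Signal on each array against labelled time in even steps, for the imprinted genes CDKN1C and NNAT, for IGFBP3 and for the Notch ligand JAG1; blue circles are clone c6 and orange squares clone c8, 1 array per point. CDKN1C peaks at time 12, at 1967 in clone c6 and 2239.8 in clone c8, while JAG1 stays at 2517.5 or above on every late array.

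Of 17 tested regulators of imprints (DNA methylation and demethylation enzymes, zinc finger and insulator proteins, Polycomb members and other chromatin proteins) 0 passed the threshold in late against start with limma, and their median log2 change was -0.10. One, UHRF1, which guides maintenance methylation, fell in early against start, by 0.70 on the log2 scale (SE 0.16, limma adjusted p = 0.0442), and it was named after its value was seen. Over all tested probe sets 1.33% passed the threshold in that comparison. Partners of IGF2 and GRB10 were read from a list of 20, of which 19 were tested. Of these 3 rose and 0 fell late against start, beside 3.64% and 1.1% of all tested probe sets, with a list median of 0.12. IGFBP3, a secreted IGF-binding protein, rose by 3.0 ± 0.33 (limma adjusted p = 2.52e-05), and by 1.72 ± 0.30 on its other probe set (limma adjusted p = 0.00202). IGFBP4, of the same family, rose by 1.36 ± 0.17 (limma adjusted p = 8.06e-05). IRS2, an adaptor of the insulin and IGF1 receptors, rose by 1.24 ± 0.19 (limma adjusted p = 0.000443), and by 0.75 ± 0.15 on its other probe set (limma adjusted p = 0.00571).

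For DLK1, 15 of 16 listed Notch ligands, receptors, targets and partners were tested. Of these 8 rose and 1 fell in late against start, beside 3.64% and 1.1% of all tested probe sets, and the list median was 0.62. NOTCH3 was among the rises, and its reading may include the introduced NOTCH3IC. JAG1, a Notch ligand, had signals of 2517.5 to 3485.6 on the late arrays, against 17.4 and 17.9 at time 0 of clones c6 and c8. It rose by 6.50 ± 0.23 (limma adjusted p = 1.80e-10), and its other 3 tested probe sets rose by 3.40 to 6.33. HEY1, a transcriptional repressor and direct Notch target, rose by 5.53 ± 0.26 (limma adjusted p = 3.36e-09), and HEY2, of the same family, rose by 3.13 ± 0.30 (limma adjusted p = 5.16e-06). HES1, whose promoter window is printed above, rose by 2.86 ± 0.33 (limma adjusted p = 3.31e-05). Its rise was larger in early against start, at 4.04 ± 0.33 (limma adjusted p = 2.68e-06). In late against early HES1 fell by 1.18 on the log2 scale (SE 0.20, limma adjusted p = 0.00158). DLL3, a Notch ligand that acts mainly within the cell, fell by 0.94 on the log2 scale (SE 0.18, limma adjusted p = 0.00376). DLK2, the closest relative of DLK1, had a change of -0.28 ± 0.20 (limma adjusted p = 0.573) and did not pass the threshold.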

How the data were processed

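Total RNA of 17 IMR32 samples was hybridised to expression arrays. The authors deposited a probe set intensity per array on a linear scale, made with MAS5 and GCOS per the submitters' processing notes, without versions. The 2% trimmed mean was 100.01 on every array, so no further normalization was added. Detection calls were left aside, and the number of arrays limits the precision. Intensities deposited by the authors were transformed as log2(value + 16).

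Probe sets were named from the platform annotation. By gene identifier, 41043 of 41097 probe sets with 1 symbol matched a RefSeq gene table of GRCh38.p14 and 0 symbols changed. No source used here names the genome build of the annotation, so no coordinates of probe sets are printed, and those of the promoter windows are RefSeq's on GRCh38.p14. Probe sets were kept where their mean reached the 40th percentile.

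All kept probe sets were tested with limma 3.58.1 under R 4.3.3, using lmFit and eBayes with its trend option, with Benjamini-Hochberg adjustment over them and a threshold of 0.05. Late and early against start came from 1 fit of all 17 arrays with terms for time and clone (7 residual degrees of freedom). Late against early (9) and the interaction (8) used 12 arrays, and the clone level (7) came from the 16 arrays at times present in both clones, with a time term. In late against early and the interaction, neighbouring times take the place of replicates within a phase. The other fits have a term per time, so their spread is the disagreement between the clones across times. Nothing in the labels says that time points were separate cultures, so the p-values reflect only the spread among these arrays, which may be technical.

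Clones pair the arrays by the labels, and the differences between the clones, time by time, had correlations of 0.162 to 0.449 across tested probe sets. At most 1.42% of values were equal between any 2 arrays. The script was tested on simulated data. Alternatives were other pseudocounts, normalizations and filters, 1 probe set per gene, no trend, no block, phase means, fits of a single clone and the omission of each array in turn. The members, lists and tests were chosen with earlier results of these data known. A gene is given by its brightest probe set, with the other probe sets of a member gene, and of CDKN1C, PLAGL1, PHLDA2, IGFBP3, IRS2 and JAG1, beside it. From the other imprinted genes up to 6 rises and 6 falls in late against start were named, from each other list up to 3 each way, besides DLK2, NOTCH3 and JAG1, and for each member gene the 2 genes of most similar pattern.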

Additional observations from a re-analysis of the deposited data

Results flagged for a closer look

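Of the 18 members below the mean needed for testing, 3 had all 6 late arrays above their own time 0, as did 1527 of 21870 such probe sets (6.982%). Their median late signals were 12.8 for a MEG3 probe set, 9.35 for an IGF2/INS-IGF2 probe set and 6.4 for a probe set of the SNRPN-locus small nucleolar RNAs and IPW, all below the array medians of 14.6 to 19.3.

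The brighter tested MEG3 probe set had all 3 late arrays of clone c6 below time 0 and all 3 of clone c8 above it. The mean log2 changes were -0.18 in clone c6 and 0.55 in clone c8, a difference of -0.74 that was not tested, and 2839 of the tested probe sets had late arrays on opposite sides of time 0 in the same way.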

How the results depend on the processing

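Of 489 recomputed values of named changes, 433 kept their direction and their side of the threshold. IGF2/INS-IGF2 kept both in late against start (log2 2.17 to 4.64 over 29 settings) and in late against early (1.97 to 3.78 over 24 settings). Fewer arrays enter the fits of a clone alone. In late against start these gave -1.10 for DLK1 in clone c6 (limma adjusted p = 0.0528), and in clone c8 -0.97 for DLK1 (0.264), 3.07 for the brighter H19/MIR675 probe set (0.0711) and 2 called members. In late against early clone c8 alone gave -0.92 for DLK1 (0.0754), 1.79 and 1.12 for H19/MIR675 (0.133 and 0.0982) and 1 called member. Leaving out each array in turn, the early log2 change ranged from 0.89 to 1.51 for the brighter and from 0.81 to 1.26 for the dimmer H19/MIR675 probe set, with 0 to 2 members called. That of DLK1 ranged from -0.14 to 0.06, turning sign at 0.027 without time 4 of clone c6 and at 0.0599 without time 12 of clone c8. The clone level count of members was 5 with 1 probe set per gene, where fewer were tested, and 5 without an intensity trend. MEST in late against early had no call in 18 of 24 settings, with a highest adjusted p of 0.904 with no replicate block (no clone term). The cause of these shifts was not tested.

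Counts over all tested probe sets moved too. Late against start called 1556, against 984 with 1 probe set per gene, 806 with no replicate block, 458 and 188 in clones c6 and c8 alone, and 634 and 599 without time 0 of clone c6 or c8. Early against start called 436, against 284 with 1 probe set per gene, 227 with no filter, 204 without a trend, 140 on phase means, 95 with no replicate block, 14 and 41 in clones c6 and c8 alone, 66 and 83 without time 0 of clone c6 or c8, and 264 and 244 without time 4 or 8 of clone c8. Late against early called 1100, against 729 with 1 probe set per gene, 309 in clone c8 alone and 1904 without time 12 of clone c8. Leaving out time 12 of both clones, a setting chosen after seeing the data, called 1901 there, with 3.08 and 2.15 for H19/MIR675, 3.26 for IGF2/INS-IGF2 and -1.12 for DLK1, and 1 in the interaction, against 0. The clone level called 6252, against 3134 with 1 probe set per gene. Median centring gave 66.04% rises among late calls and 56.42% among early calls, against 76.8% and 66.74%.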
